A study of Homo sapiens with 24 samples.

Results

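Cadherins are the calcium-dependent receptors that hold neighbouring cells together, and which cadherin a cell makes is a common readout of whether it is in an epithelial or a mesenchymal state. The genes described here are 10 such state genes, chosen by name: the cadherins CDH1, CDH2, CDH6 and CDH16, the epithelial adhesion molecule EPCAM, the intermediate filament VIM, and the transcription factors ZEB1, ZEB2, SNAI1 and SNAI2. All 10 were among the 23106 gene symbols counted, and 9 of them were among the 11735 genes that passed the filter on low counts. The cells were RCC4+VHL, a clone of the RCC4 renal carcinoma line that carries a stably transfected VHL expression vector and is kept under G418 selection, so that oxygen-dependent control of hypoxia-inducible factor (HIF) is restored. PolyA+ RNA was sequenced after 6 h in 6 independent replicates of each of 4 groups. Normoxia + DMSO had 21% oxygen and 0.1% DMSO, normoxia + ITE had 21% oxygen and 100 nM ITE, hypoxia + DMSO had 0.5% oxygen and 0.1% DMSO, and hypoxia + ITE had 0.5% oxygen and 100 nM ITE. ITE is an indole ligand that activates the aryl hydrocarbon receptor (AHR). All groups carried the VHL vector and were kept beforehand in phenol red-free medium with charcoal-treated serum, and vector-only RCC4 cells were not analysed here.

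E-cadherin (CDH1) is the cadherin of most epithelia, N-cadherin (CDH2) that of mesenchymal and neural cells, and proximal tubule cells of the kidney are unusual among epithelia in making N-cadherin and cadherin-6. Cadherin-16 (CDH16) is called kidney-specific cadherin. In epithelial-mesenchymal transition, factors of the ZEB and SNAIL families bind E-box sequences and repress epithelial genes such as CDH1, while filament proteins such as vimentin accumulate.

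The libraries held between 770094 and 93851342 counts in all (median 7981993). Levels are given as CPM, the counts of a gene relative to the TMM-scaled depth of its library, and levels of different genes are compared only as CPM per kilobase of the gene's canonical transcript. Hypoxia + ITE replicate 6 stood apart from the rest of its group, with a median absolute deviation of 0.755 on the log2 scale from the other libraries of its group, against 0.109 to 0.428 in the other 23 libraries, and with deviations that rose with GC content (rank correlation across 10594 genes of 0.676, against -0.47 to 0.162). Hypoxia + DMSO replicate 2 was the shallowest, and 3 counts there corresponded to 4.12 CPM, a floor that covers counting error only. The treatments were visible in both arms. NDRG1, a gene induced by HIF, was higher by 3.25 on the log2 scale in hypoxia with DMSO (adjusted p = 5.68e-15), and CYP1B1, a gene induced by AHR, was higher by 2.51 with ITE in normoxia (adjusted p = 7.64e-09), from edgeR's quasi-likelihood test.

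The RefSeq promoter windows searched here (assembly GRCh38.p14) ran from 250 bases before to 50 bases after a transcript start. They covered 4 of the 10 genes, as 11 windows for VIM, CDH2, ZEB1 and ZEB2. The promoters of the other genes were not searched. The windows were searched on both strands for the E-box CACCTG, to which ZEB and SNAIL factors bind, and for ACGTG and GCGTG. The paper reports that HIF favoured ACGTG and that AHR preferred GCGTG. It gives the HIF motif as RCGTG, so GCGTG also fits that motif. Shown are the start of VIM, whose hypoxic and normoxic libraries did not overlap, the upstream start of CDH2, the predominant cadherin, the start of ZEB2, and that start of ZEB1 which holds the most E-boxes. Capitals mark the motifs on either strand.
VIM, chr10:17227991-17228290, plus strand: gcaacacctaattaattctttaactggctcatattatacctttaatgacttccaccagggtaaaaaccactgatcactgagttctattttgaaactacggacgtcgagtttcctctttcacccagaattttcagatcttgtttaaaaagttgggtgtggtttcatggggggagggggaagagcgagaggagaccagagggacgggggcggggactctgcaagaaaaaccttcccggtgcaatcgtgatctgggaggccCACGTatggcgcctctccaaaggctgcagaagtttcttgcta
CDH2, chr18:28177081-28177380, minus strand: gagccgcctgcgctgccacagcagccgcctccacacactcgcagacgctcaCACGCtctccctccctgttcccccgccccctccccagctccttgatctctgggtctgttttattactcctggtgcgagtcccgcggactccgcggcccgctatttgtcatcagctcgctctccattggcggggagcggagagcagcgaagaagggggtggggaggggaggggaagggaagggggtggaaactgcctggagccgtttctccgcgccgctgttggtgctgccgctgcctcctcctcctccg
ZEB2, chr2:144520070-144520369, minus strand: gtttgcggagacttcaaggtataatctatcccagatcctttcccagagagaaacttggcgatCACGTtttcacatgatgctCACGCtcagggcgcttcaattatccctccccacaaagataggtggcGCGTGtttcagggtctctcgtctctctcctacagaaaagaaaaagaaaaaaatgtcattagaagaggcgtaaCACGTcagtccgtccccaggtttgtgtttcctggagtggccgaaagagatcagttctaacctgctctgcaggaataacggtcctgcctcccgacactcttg
ZEB1, chr10:31318966-31319265, plus strand: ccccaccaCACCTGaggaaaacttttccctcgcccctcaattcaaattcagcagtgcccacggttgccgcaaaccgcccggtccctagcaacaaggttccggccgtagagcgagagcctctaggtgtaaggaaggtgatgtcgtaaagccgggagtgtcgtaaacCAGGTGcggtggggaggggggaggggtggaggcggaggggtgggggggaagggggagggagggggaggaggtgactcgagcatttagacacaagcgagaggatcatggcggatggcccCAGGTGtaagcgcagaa

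The VIM window held 1 ACGTG and neither of the other motifs. The CDH2 window held 1 GCGTG, and the ZEB2 window held 2 ACGTG and 2 GCGTG. The ZEB1 window shown held 3 E-boxes and was picked for them, so it cannot be set against a share of all windows. Of the other ZEB1 windows, that starting at base 31318167 held 1 E-box and that at 31318568 held 3 GCGTG. That at 31320304 held 1 GCGTG, that at 31320951 held 2 ACGTG, and the rest held none of these motifs. The other CDH2 window held none either. Among all 35116 windows of this length that were searched, 20.6% held the E-box, 21.4% ACGTG and 36.5% GCGTG. Each motif is thus common at human promoters. These matches describe letters in a window and do not show binding.

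In normoxia with the DMSO vehicle the most abundant transcript of the 10 was VIM, and N-cadherin stood far above E-cadherin, while EPCAM was also abundant. VIM (vimentin, chromosome 10, 17270240 to 17279592 of GRCh37, plus strand) had 1943 CPM in the lowest, 2028 in the median and 2214 in the highest normoxia + DMSO library, with a mean of 2041 ± 92.3 CPM (SD, n = 6). Per kilobase this was a median of 941, above every other member in every library. CDH2 (chromosome 18, 25512843 to 25757910, minus strand) ranged from 212 to 256 CPM with a median of 236, and EPCAM (chromosome 2, 47572297 to 47614740, plus strand) from 85.0 to 105 CPM with a median of 90.0. Per kilobase, CDH2 (median 58.8) and EPCAM (median 58.2) overlapped, and their order turned on the length used. With the length of all annotated exons together in place of the canonical transcript, EPCAM had 37 CPM per kilobase and CDH2 27.5, without overlap. EPCAM, an adhesion molecule of simple epithelia, and vimentin were thus counted side by side in the same RNA, at a VIM to EPCAM ratio per kilobase between 14.1 and 16.8 in the 6 libraries.

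E-cadherin transcripts were near the limit of counting. CDH1 (chromosome 16, 68771195 to 68869440, plus strand) had between 0 and 47 counts per library, 168 over all 24 libraries, and was listed at 0 in 7 of them. In normoxia + DMSO its level ranged from 0 to 0.888 CPM with a median of 0.495, in normoxia + ITE from 0 to 0.67 with a median of 0.206, in hypoxia + DMSO from 0 to 0.302 with a median of 0.172, and in hypoxia + ITE from 0 to 0.463 with a median of 0.214. The groups overlapped, and 13 of the 24 libraries held 3 counts or fewer. Per kilobase, CDH2 exceeded CDH1 by at least 315-fold in each normoxia + DMSO library when a library with under 3 CDH1 counts was set to 3, with a median ratio of 581. CDH1 failed the filter on low counts. With no filter, its log2 change in hypoxia with DMSO was -1.12 (95% confidence interval -2.72 to 0.489, adjusted p = 0.672 from edgeR), so neither a fall nor a rise of this gene was detectable at this depth.

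The 4 transcription factors were all counted in every library, SNAI1 at the lowest level. SNAI2 (SLUG, chromosome 8, 49830157 to 49834299, minus strand) had 19 to 26.8 CPM with a median of 21.6 in normoxia + DMSO, ZEB1 (chromosome 10, 31607424 to 31818742, plus strand) 21.3 to 27.9 with a median of 25.0, and ZEB2 (chromosome 2, 145121931 to 145278624, minus strand) 27.0 to 40.7 with a median of 37.1. SNAI1 (SNAIL, chromosome 20, 48599517 to 48605423, plus strand) was far lower, at 0.423 to 2.83 CPM with a median of 1.35. Per kilobase the medians were 9.92 for SNAI2, 4.2 for ZEB1, 4.01 for ZEB2 and 0.789 for SNAI1. SNAI2 lay below EPCAM and above ZEB1 without overlap, ZEB1 and ZEB2 overlapped, and the ratio of SNAI2 to SNAI1 per kilobase ran from 5.24 to 49.5.

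The kidney cadherins took the lower middle of the order and had the widest spread. CDH16 (chromosome 16, 66942025 to 66952820, minus strand) ranged from 3.11 to 26.6 CPM in normoxia + DMSO with a median of 8.86, and CDH6 (chromosome 5, 31193793 to 31329253, plus strand) from 1.27 to 27.2 CPM with a median of 7.79. Per kilobase CDH16 had a median of 3.10 and overlapped ZEB2, ZEB1 and SNAI1. Through replicates 1 and 2 (9.33 and 9.11 against a lowest SNAI2 value of 8.69) it also overlapped SNAI2. CDH6 had a median of 0.912 and overlapped CDH16, SNAI1, ZEB2 (lowest 2.92 against a highest CDH6 of 3.18) and CDH1. The overlap with CDH1 came through replicate 5, where CDH6 was at 0.149 against a highest CDH1 of 0.185. Thus VIM stood alone at the top and CDH2 with EPCAM followed as a separate step. The genes from SNAI2 down to CDH1 were not fully separated, since CDH16 and CDH6 spread across several of them. With CDH1 set to 3 counts in libraries that held fewer, CDH1 lay below SNAI1 without overlap in both normoxia groups, and the genes overlapped in both hypoxia groups (highest CDH1 0.856 and 0.464 against lowest SNAI1 0.26 and 0.377 CPM per kilobase). VIM at the top, EPCAM and CDH2 below it and SNAI2 below those was the order of the medians in each of the 4 groups.

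Genes of both the epithelial and the mesenchymal programme were counted beside the members. Lists of such genes were read by the number expressed and, for levels, by genes among the 3 highest per kilobase. Among 18 other cadherins, 3 had a median of at least 1 CPM in normoxia + DMSO, namely CDH24 (17.7 CPM), CDH4 (8.72 CPM) and CDH17 (1.47 CPM), and 8 were listed at 0 in all 6 libraries. Of 12 partners of cadherins at the adherens junction, 9 reached 1 CPM, led per kilobase by CTNNA1 (alpha-catenin, median 178), CTNNB1 (beta-catenin, 70.9) and VCL (vinculin, 67.4). Alpha-catenin and beta-catenin, which link cadherins to actin, thus had higher medians per kilobase than CDH2.

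Of 34 epithelial genes, 21 had a median of at least 1 CPM. The simple-epithelial keratins KRT18 (358 CPM per kilobase) and KRT8 (353) and the protease inhibitor SPINT2 (275) led the list. The tight junction genes CLDN1, CLDN2, TJP1 and OCLN were counted in every library of the group. Other tight junction genes of the list were scarce, namely CLDN4 (median 0.355 CPM), TJP3 (0.271 CPM) and CLDN7 (0 CPM). The epithelial splicing factor ESRP1 and the regulators GRHL2, OVOL1 and OVOL2 had medians of 0. Of 31 mesenchymal genes, 21 reached 1 CPM, led by TAGLN (transgelin, 261 CPM per kilobase), TGFBI (199) and AXL (a receptor tyrosine kinase, 89.9), whereas TWIST1, GSC and FOXC2 were listed at 0 in all 6 libraries. Of 20 genes of the TGF-beta pathway, a pathway that induces SNAI1 and ZEB factors, 18 reached 1 CPM, with ID1 (29.8 CPM per kilobase) and TGFB1 (29.4) among the 3 highest.

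The label of a renal epithelial line was checked on 8 lineage markers, and 7 of them had a median of at least 1 CPM in each group. These markers include CDH16, itself a member, and KRT8 and KRT18, which were also in the epithelial list. PAX8, the nephric lineage factor, had a median of 245 CPM in normoxia + DMSO, and EMX2 was at 0 there. Most markers of other cell types were scarce except in 1 library, while the fibroblast marker PDGFRB was not. Endothelial markers summed to between 0 and 3.98 CPM over all libraries, with 0 of 5 at a median of 1 CPM. Of 6 fibroblast markers only PDGFRB reached that level (median 42.5 CPM). LUM stayed below it, and PDGFRA, DCN, COL3A1 and FAP had medians of 0. Normoxia + DMSO replicate 4 stood apart, with COL1A1 at 27.1 CPM, COL1A2 at 16.3 and COL3A1 at 16, where the highest of the other 23 libraries had 3.23, 0 and 0.116 CPM. DCN, LUM, POSTN, CDH11, PRRX1 and MMP2 were also highest there, at 0.368 to 2.98 CPM. VIM (1943 CPM) and CDH2 (212 CPM) were at the lowest and ZEB2 (40.7 CPM) at the highest value of the group in that library, and the part of these transcripts in the levels of the members was not tested. The summed fibroblast markers ranged from 27.0 to 69.4 CPM in normoxia + DMSO, 28.0 to 47.2 in normoxia + ITE, 17.8 to 48.6 in hypoxia + DMSO and 26.2 to 48.2 in hypoxia + ITE. Of 5 leukocyte markers only ITGAM reached 1 CPM, and CD3E was at 0 in normoxia + DMSO. These are bulk libraries, in which fewer cells of a type and less RNA per cell cannot be told apart, so whether EPCAM and vimentin came from the same cells was not tested.

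VIM was the member whose levels were separated by oxygen, with higher counts in all hypoxic libraries, although it did not pass the threshold. In hypoxia + DMSO it had 2313 CPM in the lowest, 2496 in the median and 2667 in the highest library, against 1943, 2028 and 2214 in normoxia + DMSO. With ITE present, hypoxia + ITE had 2287, 2415 and 2546 CPM, against 1970, 2020 and 2049 in normoxia + ITE. Every hypoxic library was thus above every normoxic library with the same agent, in both settings. Groups that do not overlap were found for 2.74% of all tested genes in hypoxia with DMSO and for 2.13% in hypoxia with ITE.

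The fold change of VIM was 1.22 (95% confidence interval 1.09 to 1.37) in hypoxia with DMSO, a log2 change of 0.29 with a standard error of 0.0812. With ITE it was 1.20 (1.07 to 1.35), a log2 change of 0.26. Neither passed the threshold of 0.05 (adjusted p = 0.0821 and 0.0784 from edgeR's quasi-likelihood test over 11735 genes), at unadjusted p of 0.00129 and 0.00317. A two-sided exact permutation test of the 6 against 6 libraries gave p = 0.00216 in each setting, the smallest it can give, and an exact permutation p adjusted over all 11735 genes of 0.0791 and 0.102. The call depended on the model and on 1 library. VIM passed in both settings with DESeq2 (adjusted p = 1.63e-06 and 1.21e-05), with sample quality weights in limma (adjusted p = 0.000158 and 0.000861) and when hypoxia + ITE replicate 6 was left out of the edgeR fit (adjusted p = 0.00941 and 0.0234), and leaving out any of the other 23 libraries left it above 0.05. Without normoxia + DMSO replicate 4, the library with the collagen transcripts, the VIM change was 0.28 with DMSO (adjusted p = 0.191 from edgeR). Offsets for GC content and length moved the change with ITE from 0.26 to 0.16 (adjusted p = 0.401 from edgeR). ITE itself left VIM at log2 changes of -0.02 in normoxia (95% confidence interval -0.187 to 0.146) and -0.05 in hypoxia (-0.215 to 0.117), and the difference between the effects of hypoxia with and without ITE was -0.03 (-0.264 to 0.207, adjusted p = 0.983 from edgeR).

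No member passed the test in any comparison. The counts were 0 of 9 tested members for ITE in normoxia, where 0.0511% of all tested genes were called (6 genes), 0 of 9 for hypoxia with DMSO against 1.3% of all (152 genes), 0 of 9 for hypoxia with ITE against 2.35% (276 genes), and 0 of 9 for ITE in hypoxia against 0.0597% (7 genes). In this fit, which has no replicate block, VIM was the only member at an unadjusted p under 0.05 in the hypoxia comparisons, and no member reached it for ITE. For the interaction of ITE and oxygen, edgeR called 0% of all genes and 0 of 9 members, with 374 genes at an unadjusted p under 0.05 and 0 genes called by DESeq2. The median log2 change of the 9 members was -0.02 with ITE in normoxia and -0.08 in hypoxia with DMSO, against 0.00 for all genes in each.

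How tightly a change could be bounded differed between the members. For CDH2, all 4 confidence intervals lay between -0.301 and 0.248 on the log2 scale. This fit thus bounded a change of CDH2 RNA to within 0.812-fold and 1.19-fold. Its level was nearly even across groups, at 233 ± 16, 236 ± 17.7, 241 ± 26.2 and 224 ± 24 CPM (SD, n = 6) in normoxia with DMSO or ITE and in hypoxia with DMSO or ITE. EPCAM had 93.9 ± 8.33, 99.2 ± 9.78, 107 ± 29.9 and 104 ± 23.4 CPM in the same order, with intervals between -0.35 and 0.50. The 2 hypoxia groups were more spread than the normoxia groups for EPCAM, through 168 CPM in hypoxia + DMSO replicate 1 and 147 CPM in hypoxia + ITE replicate 3.

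No change of the repressors was detectable. ZEB1 had 24.5 ± 2.59 CPM in normoxia + DMSO and 20.4 ± 4.86 in hypoxia + DMSO, a log2 change of -0.23 (95% confidence interval -0.59 to 0.123, adjusted p = 0.73 from edgeR). It had 23.2 ± 4.62 CPM in normoxia + ITE and 22 ± 5.81 in hypoxia + ITE. ZEB2 had 35.6 ± 5.01, 35.4 ± 4.39, 33.2 ± 7.74 and 32.1 ± 10.1 CPM in the 4 groups, and the wide spread of the last came from hypoxia + ITE replicate 6 at 12.3 CPM. Without that library, the log2 change of ZEB2 in hypoxia with ITE was 0.02 in place of -0.14, and neither value passed the test. SNAI2 had a negative log2 change in all 4 comparisons, between -0.26 and -0.20, with levels of 22.2 ± 2.66, 18.6 ± 4.65, 19.2 ± 4.25 and 16.2 ± 3.47 CPM, and its adjusted p was 0.534 or above (edgeR). These comparisons share groups, and its groups overlapped in each. SNAI1 was too sparse for a tight bound, with 1.39 ± 0.811, 1.52 ± 0.929, 1.34 ± 0.757 and 1.64 ± 1.17 CPM and intervals that reached from 0.502-fold to 2.07-fold.

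CDH6 and CDH16 varied more with the replicate number than with the treatment. In the 8 libraries numbered 1 or 2, CDH6 ranged from 13.2 to 27.4 CPM with a median of 18.6, and in the 16 libraries numbered 3 to 6 it ranged from 1.27 to 8.77 CPM with a median of 5.57. CDH16 ranged from 20.6 to 38.6 CPM (median 25.6) in the former and from 3.11 to 14 CPM (median 7.20) in the latter. Neither gene had any overlap between these sets of libraries. The sets were chosen from these values, so this is a description, and 0.17% of all tested genes (20 genes) did not overlap under the same split. Each set held libraries of all 4 groups. Replicate 5 held the lowest CDH6 and CDH16 values of all 4 groups, at 1.27 to 2.46 CPM for CDH6 and 3.11 to 4.16 CPM for CDH16.

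A test of the replicate number, with group in the model and 5 degrees of freedom, was made after these values were seen. It called 1.76% of all tested genes (206 genes) and 2 of the 9 members, CDH16 (adjusted p = 4.94e-08 from edgeR, 6th of 11735 genes by p) and CDH6 (adjusted p = 3.47e-07, 7th). Without hypoxia + ITE replicate 6 these were 6.5e-09 and 3.05e-07, as adjusted p from edgeR. The other 7 members had an adjusted p of 0.653 or above in this test. On the log2 scale, the medians of the 6 replicate numbers spanned 3.78 for CDH6 and 2.77 for CDH16, and the medians of the 4 groups spanned 0.30 and 0.652. For VIM the span was the other way, 0.0785 over replicate numbers and 0.303 over groups. Libraries numbered 2 ranged from 770094 to 41607311 counts in total, and CDH6 in them from 17.9 to 27.4 CPM. In the shallowest of these, CDH6 rested on 13 counts and CDH16 on 15 counts. The labels do not say what a replicate number stands for.

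Within the kidney cadherins the level of one moved with that of the other. The log2 ratio of CDH16 to CDH6 had an SD of 0.582 over the 24 libraries, against SDs of 1.26 for CDH6 and 1.06 for CDH16 alone. Likeness was measured in this way against all 8999 tested genes with a mean of at least 10 CPM, by the smallest SD of the log2 ratio. The gene most like CDH6 was CDH16, followed by CLDN2 (SD 0.653), which codes for the pore-forming claudin of the proximal tubule. For CDH16 they were CLDN2 (0.376) and SLC17A3 (0.531), a transporter of the proximal tubule, where the median over all genes was 1.11. CLDN2 ranged from 213 to 310 CPM in the libraries numbered 1 or 2 and from 54.2 to 204 CPM in those numbered 3 to 6, without overlap. It was picked for its likeness to these cadherins in the same libraries, so this separation is a description only.

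**Figure D1:**
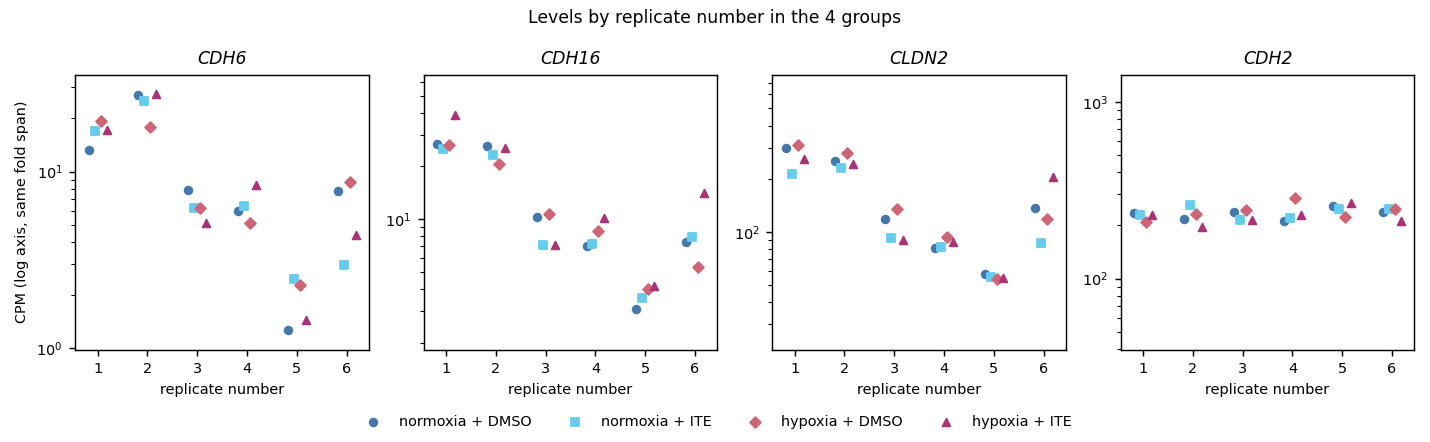
CPM of CDH6, CDH16, CLDN2 and CDH2 by replicate number, with 1 point for each of the 4 groups at each number, on log axes of equal fold span. The points of a number lie together across groups, CDH6 is lowest at replicate 5 (1.27 to 2.46 CPM) and highest at replicate 2 (17.9 to 27.4 CPM), and CDH2 stays between 197 and 287 CPM throughout.

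For the other members with a mean of at least 10 CPM, the closest genes, named below, were not among the lists of junction or epithelial-mesenchymal genes. CDH2 was closest to LASP1 (SD of the log2 ratio 0.11) and DDB1 (0.111), EPCAM to ATP5C1 (0.112) and HMGN1 (0.112), and VIM to KCMF1 (0.0944) and BFAR (0.104). ZEB1 was closest to SUPT16H (0.189), ZEB2 to G3BP2 (0.16) and EXOC5 (0.165), and SNAI2 to CCDC71L (0.21) and AKIRIN2 (0.23). For each of these 6 members the closest genes had a smaller SD than the member alone (0.127 for CDH2, 0.237 for EPCAM, 0.155 for VIM, 0.306 for ZEB1, 0.381 for ZEB2 and 0.332 for SNAI2). The closest genes were picked for the smallest SD among 8999 genes, so this is a description and not a test.

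Apart from the known targets used to check the treatments, 1 gene of the wider lists passed the test in a comparison of treatments. KRT19, a keratin of simple epithelia, was higher in hypoxia with ITE, by a log2 change of 0.89 ± 0.232 (SE, adjusted p = 0.0375 from edgeR), in the comparison that called 2.35% of all tested genes. Its level was 168 CPM in the lowest and 213 CPM in the highest normoxia + ITE library, and 168 CPM in the lowest and 828 CPM in the highest hypoxia + ITE library, the last being replicate 6, so the groups overlapped. Without that library the change was 0.42 (adjusted p = 0.063 from edgeR). KRT19 passed in 16 of the 24 edgeR fits that left out 1 library, and it was also lost without hypoxia + ITE replicate 3 (adjusted p = 0.059) or without any of the 6 normoxia + ITE libraries, where the highest adjusted p was 0.0833. With offsets for GC content and length it was 0.39 (adjusted p = 0.122 from edgeR), with sample quality weights in limma 0.40 (adjusted p = 0.0224), with the replicate number as a block 0.77 (adjusted p = 0.0615 from edgeR) and with only the compared groups in the fit 0.89 (adjusted p = 0.296 from edgeR). KRT19 also passed with DESeq2 (log2 change 0.91, adjusted p = 0.00858). In edgeR it passed with other scaling factors (adjusted p = 0.0394 and 0.0384) and with other low-count filters (0.0438 and 0.0382). It did not pass with the block in only the compared groups (0.418) or with offsets and the block (0.0601, both adjusted p from edgeR). In hypoxia with DMSO the log2 change of KRT19 was 0.36 and did not pass.

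The remaining 20 of 21 tested epithelial genes, all 21 mesenchymal genes, all 9 junction partners, all 3 other cadherins and all 19 tested TGF-beta pathway genes stayed above the threshold in all 4 comparisons and in the interaction. In hypoxia with DMSO the median log2 change was 0.04 for the epithelial list and -0.16 for the mesenchymal list, against 0.00 for all genes, with 11 of 21 and 6 of 21 genes positive. In hypoxia with ITE it was 0.01 and 0.12, with 11 and 13 of 21 positive, against 0.02 for all genes. The mesenchymal median thus had opposite signs in the 2 hypoxia comparisons. The replicate number, which called 1.76% of all tested genes, called 2 of 21 epithelial genes (CLDN2 and ELF3), 3 of 21 mesenchymal genes (TGFBI, SPARC and ACTA2), 2 of 19 TGF-beta pathway genes (ID1 and ID3) and none of the junction partners (0 of 9) or other cadherins (0 of 3).

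Named antisense genes that share exon bases with a member are annotated for VIM (VIM-AS1), ZEB1 (ZEB1-AS1) and ZEB2 (ZEB2-AS1). Unnamed genes on the opposite strand share exon bases with CDH1, CDH2, CDH6 and SNAI2, and the strand setting of the counting is not given in the sources used here. Whether reads of these antisense genes were counted with those of the member is therefore not known, although the paper names a directional library kit. Genes on the same strand also share exon bases with CDH6 (DUX4L51) and ZEB2 (AC009951.1).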

How the data were processed

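PolyA+ RNA of RCC4+VHL cells was measured in 24 libraries, 4 groups of 6. The authors trimmed reads (Trim Galore 0.3.3), aligned them to GRCh37 with HISAT2, removed reads that did not map uniquely (Picard 2.0.1) and counted them per UCSC gene with HTSeq in intersection-strict mode, and deposited raw counts per gene symbol without normalisation. Groups and replicate numbers came from the sample labels.

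Genes were filtered with edgeR 4.0.16 (filterByExpr, minimum count 10), scaled by TMM and fitted with 1 mean per group over all 24 libraries in R 4.3.3. Two-sided quasi-likelihood p-values were corrected over all 11735 tested genes after Benjamini and Hochberg (threshold 0.05). The study's own test was DESeq2, used here (1.42.0) as an alternative, as was limma 3.58.1. Log2 CPM used a prior count of 2. Exact permutation tests used SciPy 1.17.1. The code was tested on simulated data. Gene positions and lengths came from GENCODE v44lift37, which gave GC content and length for 90.3% of tested genes. Total counts ranged from 770094 to 93851342, so floors of 3 counts ranged from 0.0294 to 4.12 CPM. Such floors and confidence intervals rest on counting error and on the spread between replicates, respectively.

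The members and lists were chosen with earlier results of these data known. All members were named. List genes were named when called (up to 3 per list, comparison and direction) or when among the 3 highest per kilobase, and like genes as the 2 with the smallest SD of the log2 ratio. Genes with a level near 0, expressed junction genes, markers and genes called by replicate number were named after their values were seen. MLLT4, PVRL1, PVRL2 and PVRL3 had no length under these symbols and were left out of the order per kilobase. Values of a few list and like genes are not reported here. Alternatives were 13 settings of the fit. Leaving out each other library was added after seeing the data, only for VIM, KRT19 and the number of members called in the hypoxia comparisons.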

Additional observations from a re-analysis of the deposited data

Results flagged for a closer look

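Of 40 sets of 6 libraries (10 genes in 4 groups), 4 held a value whose gap to its nearest neighbour was large for the range of the set, and chance gives about 1 in 20. In hypoxia + DMSO replicate 1, EPCAM was at 168 CPM with the next library at 102 CPM, and SNAI2 was at 27.3 CPM with the next at 20.1 CPM. VIM in normoxia + DMSO replicate 5 was at 2214 CPM with the next at 2040 CPM, and still below every hypoxia library. ZEB2 in hypoxia + ITE replicate 6 was at 12.3 CPM with the next at 32.9 CPM. Hypoxia + ITE replicate 6 is the library whose deviations rose with GC content, and its part in the ZEB2 value was not tested.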

How the results depend on the processing

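No member was called in any comparison by the reported fit, and under the 13 settings chosen with the design this count moved only in the 2 hypoxia comparisons. There it became 1, VIM, in hypoxia with DMSO and in hypoxia with ITE, with DESeq2, with sample quality weights (limma) and without hypoxia + ITE replicate 6. Over all genes, DESeq2 called 251 of 23106 in hypoxia with DMSO and 683 in hypoxia with ITE. Quality weights called 840 and 605 of 11735, and the fit without that library 303 and 255 of 11808. Over the 24 fits that each left out 1 library, the count of members was 0 to 1 in both hypoxia comparisons. The VIM change was 0.27 to 0.32 with DMSO and 0.25 to 0.27 with ITE. Whether KRT19 was called in hypoxia with ITE also varied, with an adjusted p of 0.0069 to 0.0833 over these fits (edgeR).

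The same replicate numbers occur in each group, but they did not meet the criterion for pairing, a correlation over 0.1 in every same-numbered pair. This criterion asks for every pair, so failing it does not show that the libraries are unmatched. Deviations from the group means correlated over 0.1 in 5 of 6 same-numbered pairs of normoxia + DMSO and normoxia + ITE (range -0.0045 to 0.435) in 2 of 6 of the hypoxia groups (-0.181 to 0.214), and in 3 of 6 of the hypoxia and normoxia groups with DMSO (-0.0219 to 0.245) and with ITE (0.0115 to 0.254), and not every library correlated best with its own number (5, 2, 3 and 4 of 6 in this order). With the replicate block, 0 members were called in each comparison. The standard errors of the 4 log2 changes were 0.23 to 0.242 with the block and 0.628 to 0.681 without it for CDH6, and 0.177 to 0.185 against 0.541 to 0.588 for CDH16. CDH16 in hypoxia with ITE was then 0.38 (95% confidence interval 0.00967 to 0.75), at an unadjusted p of 0.0448 and an adjusted p of 0.243 from edgeR. Of the listed genes, TGFBI was then called in hypoxia with DMSO (adjusted p = 0.0451) and ID1 in hypoxia with ITE (0.0111), and KRT19 was not (0.0615), all from edgeR. The fit with the block called 174 and 261 of all 11735 genes in these comparisons.

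Of 611 values of single members under other settings, 46 changed sign, none of them past the threshold (smallest adjusted p 0.592 from edgeR, DESeq2 or limma), and the cause was not tested. For members other than VIM, the libraries left out, 1 at a time, were only hypoxia + ITE replicate 6 and hypoxia + DMSO replicate 2. As log2 changes the values with a changed sign were as follows. In hypoxia with DMSO, CDH6 became 0.060 with the replicate block, 0.041 with the block in only the compared groups and 0.21 with GC and length offsets and the block. With the same offsets, ZEB2 became 0.014 without and 0.024 with the block, and CDH16 0.076 with it. In hypoxia with ITE, the offsets gave CDH2 0.092, ZEB1 0.10 and ZEB2 0.056 without the block and 0.084, 0.0997 and 0.039 with it. Quality weights gave EPCAM -0.019, ZEB2 0.075 and SNAI1 0.46, and the block gave SNAI1 0.028. Leaving out 1 of those libraries gave ZEB2 -0.14 to 0.019 and SNAI1 -0.039 to 0.019. For ITE in normoxia, VIM became 0.0073 and 0.0056 with the offsets (without and with the block), ZEB2 0.0017 with the block and SNAI1 -0.066 with quality weights. For ITE in hypoxia, CDH6 became -0.14 with the block, -0.13 with the block in only the compared groups and -0.079 with offsets and the block, and ZEB2 became 0.0015 with the offsets. Quality weights gave EPCAM 0.010, ZEB1 -0.042, ZEB2 0.012 and SNAI1 0.086. With 1 of those libraries left out, EPCAM was -0.083 to 0.010, ZEB1 -0.0061 to 0.0081, ZEB2 -0.099 to 0.077 and SNAI1 -0.015 to 0.030. SNAI1 became 0.050 with DESeq2, 0.013 with no filter and 0.00092 with only the compared groups. For the interaction, CDH6 became -0.044 with the block, ZEB2 0.042 and 0.015 with the offsets (without and with the block) and 0.076 with quality weights, VIM 0.0028 and SNAI1 0.15 with quality weights, and SNAI2 -0.00020 with a filter of 1 CPM in 6 libraries. Leaving out 1 of those libraries gave interactions of -0.086 to 0.096 for ZEB2 and -0.019 to 0.098 for SNAI2.

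Low counts limit CDH1 (at most 47 counts) and SNAI1, and the spread over replicate numbers limits CDH6 and CDH16 in the fit without the block.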
